A study of Mus musculus with 8 samples.

Results

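The genes described here are the BMP ligands, receptors and Id and Smad targets measured in bEnd.3 cells with and without Norrin. Members were the rows of the deposited gene table whose name equals a listed symbol, which gave 9 of the 10 listed genes among 15452 named rows. They are the ligand genes Bmp2 and Bmp4, the receptor genes Bmpr2, Acvrl1 and Eng, and the target genes Id1, Id3, Smad6 and Smad7. Bmp6 was not analysed here. The set was proposed because Bmp2 was higher with Norrin, and it asks whether Id and Smad targets followed. The set was thus selected on the Norrin and vehicle counts of Bmp2, which are given as a description, with no test. The other members were picked with earlier results of the same libraries known.

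bEnd.3 is a mouse brain endothelial line immortalised with polyoma middle T antigen. All cultures grew in high-glucose medium with fetal bovine serum. The 4 Norrin cultures received recombinant Norrin at 200 ng/ml from 24 h after seeding, and RNA was taken 24 h later. The 4 vehicle cultures had phosphate-buffered saline with bovine serum albumin per the design text, although a treatment tag calls them untreated. Norrin is a secreted protein that binds Frizzled-4 on endothelial cells and stabilises beta-catenin. The labels call the 4 cultures of each group biological replicates and say no more, so the p-values rest on culture-to-culture spread, which may be technical.

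Bone morphogenetic proteins (BMPs) are secreted dimers of the TGF-beta family. They bring type I and type II serine/threonine kinase receptors together, and the type I receptor then phosphorylates Smad1, Smad5 and Smad9. These enter the nucleus with Smad4 and switch on target genes, among which Id1, Id3, Smad6 and Smad7 are widely used readouts. The Id proteins are helix-loop-helix factors without a DNA-binding part that block other such factors. Smad6 and Smad7 are inhibitory Smads that feed back on the receptors. ALK1, the product of Acvrl1, is a type I receptor of endothelium that works with BMPR2 and the co-receptor endoglin. Loss of ALK1 or endoglin causes hereditary haemorrhagic telangiectasia in humans. Whether ALK1 carries a signal of BMP2 in these cells was not tested.

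Promoters of 2 target genes are shown because they carry the letters that Smad proteins are known to bind. The sequences are RefSeq's for the GRCm38.p6 build, each of 270 bases ending 20 bases after the annotated transcript start, and read 5′ to 3′ on the gene's strand. The windows are chr4:136143572-136143841 on the plus strand for Id3 and chr9:64022040-64022309 on the minus strand for Smad6. Capitals mark matches to GTCTG or GTCTAGAC on either strand.
Id3: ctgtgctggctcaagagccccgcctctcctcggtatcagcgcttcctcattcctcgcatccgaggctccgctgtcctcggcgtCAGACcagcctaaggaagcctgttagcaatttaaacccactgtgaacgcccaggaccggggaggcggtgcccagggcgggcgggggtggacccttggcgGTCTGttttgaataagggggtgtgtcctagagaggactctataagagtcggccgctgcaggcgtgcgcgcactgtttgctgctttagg
Smad6: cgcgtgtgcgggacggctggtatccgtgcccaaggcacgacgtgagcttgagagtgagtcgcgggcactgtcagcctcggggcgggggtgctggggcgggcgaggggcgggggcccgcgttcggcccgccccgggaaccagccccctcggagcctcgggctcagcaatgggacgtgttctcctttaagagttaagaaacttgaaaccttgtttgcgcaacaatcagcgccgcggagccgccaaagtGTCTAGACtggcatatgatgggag

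The Smad6 window holds the palindrome GTCTAGAC once, across the annotated transcript start, and 0.213% of 32851 RefSeq promoter windows of 300 bases hold it. The Id3 window holds the shorter GTCTG on either strand at 2 places, a string found in 49.6% of the windows. Windows were at hand for 6 of the 10 listed genes, Bmp2, Acvrl1, Id1 and Smad7 not being among them, and of these 6 Eng also holds it at 2 places and Bmp6 at 1. The GC-rich string GGCGCC, a BMP Smad motif present in 11.9% of windows, matched Bmpr2 only among those 6. The TCF/LEF strings CTTTGAT and CTTTGAA, present in 8.65% of windows, matched 0 of the 6. A match describes letters in a window and not binding.

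Total counts per library ran from 12463939 to 15220581. All 12 listed endothelial markers were measured, with Cdh5, the VE-cadherin gene, at 2111 ± 41.8 CPM (counts scaled to library depth with TMM factors) under vehicle and 2088 ± 60.2 CPM with Norrin (SD, n = 4). Of 11 mural markers 5 were in the table, summing to 6.23 to 10.2 CPM under vehicle and 6.35 to 7.67 CPM with Norrin. Of 7 fibroblast markers 3 were in the table, summing to 5.03 to 8.23 CPM under vehicle and 7.60 to 9.70 CPM with Norrin. Col1a1 was at 0.529 ± 0.358 and 0.885 ± 0.613 CPM. Axin2, the standard target of beta-catenin signalling, was higher with Norrin in 4 of 4 libraries, at 0.360 ± 0.214 CPM under vehicle and 6.72 ± 1.04 CPM with Norrin. Leaving out Norrin replicate 4 raised the number of genes called in the whole table from 296 to 452.

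Among the members, Acvrl1 was the most abundant transcript per length and Bmp2 the least. The authors' deposited table gives Acvrl1 a vehicle level of 274 RPKM (read counts scaled for gene length and library depth), Eng 145 RPKM, Id1 103 RPKM and Bmpr2 44.2 RPKM. In the authors' deposited table Id3 follows at 40.2 RPKM, Bmp4 at 26.6 RPKM, Smad6 at 10.9 RPKM, Smad7 at 8.46 RPKM and Bmp2 at 1.27 RPKM. The ALK1 and endoglin genes thus lay above 97.7% and 94.8% of the table's rows in the authors' deposited table, and Bmp2 above 21.7%. With Norrin, Bmp2 stood at 4.36 RPKM in the authors' deposited table and was still the lowest of the 9 members. These RPKM values are 1 per group with no spread, so neighbours such as Bmpr2 and Id3, or Smad6 and Smad7, cannot be told apart by them.

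Bmp2 encodes a secreted ligand that signals in many tissues, in bone and heart among them. Its counts were 28, 16, 20 and 18 in vehicle replicates 1 to 4 and 98, 77, 65 and 55 in Norrin replicates 1 to 4. Scaled for depth these were 2.24, 1.13, 1.29 and 1.45 CPM under vehicle and 6.64, 5.62, 4.76 and 4.06 CPM with Norrin. Every Norrin library lay above every vehicle library, and the lowest Norrin value was 4.06 CPM against a highest vehicle value of 2.24 CPM. The group means were 1.53 ± 0.491 CPM and 5.27 ± 1.11 CPM (SD, n = 4), a fold of 3.47 and a log2 fold change of 1.79 ± 0.28 (SE). Among the members Bmp2 also had the highest coefficient of variation under vehicle, 32.2%. With only 16 to 28 reads per vehicle library, Bmp2 carries counting error in that spread. It remained a low transcript, with 55 to 98 reads per Norrin library. In bulk RNA, more cells with the transcript and more transcript per cell cannot be told apart.

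**Figure D1:**
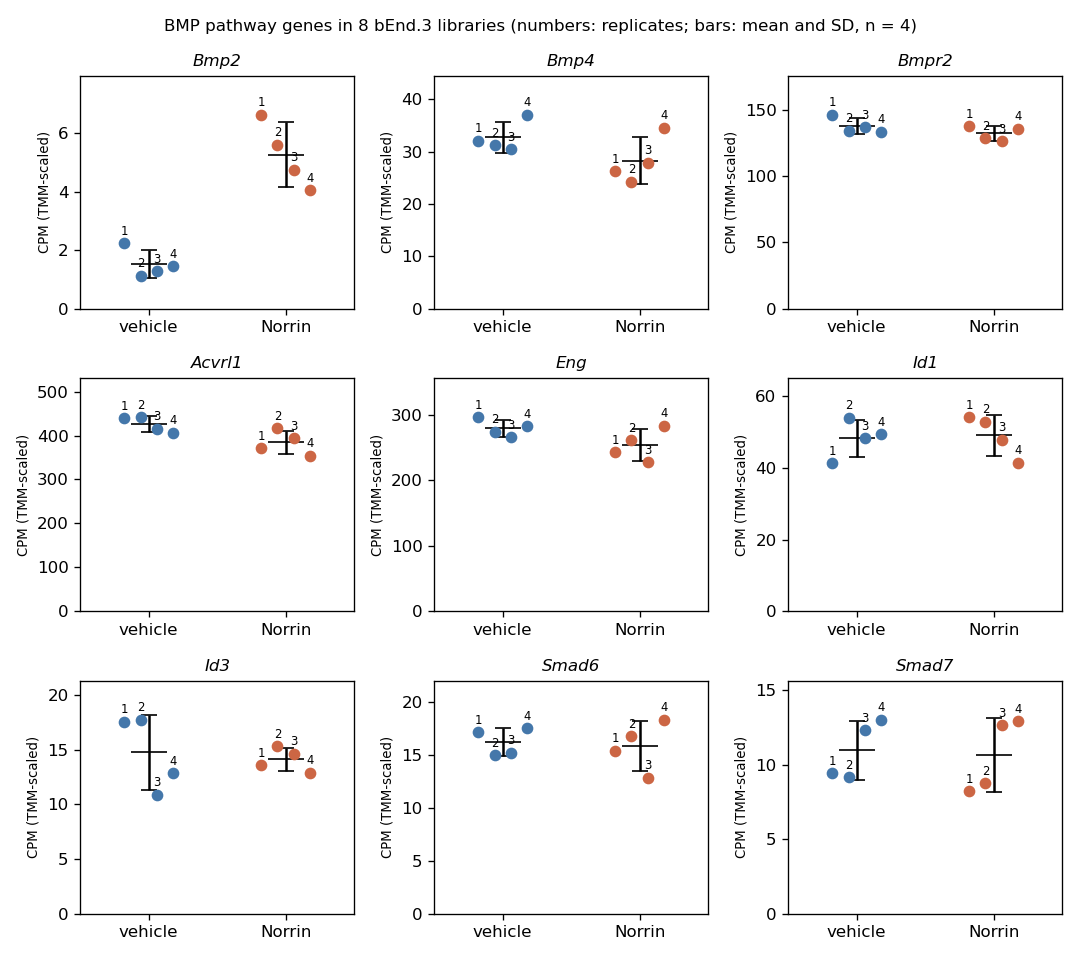
Level of each of the 9 genes in CPM (vertical axis, from 0) in the 4 vehicle and 4 Norrin libraries. Points are libraries, numbered by replicate, and bars are the mean and SD (n = 4). The groups are separate for Bmp2, between 1.13 and 2.24 CPM against 4.06 to 6.64 CPM, and overlap for the other 8 genes.

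Bmp4, the closest relative of Bmp2, was far more abundant, and its groups overlapped. Its level was 32.1, 31.3, 30.4 and 37.0 CPM in vehicle replicates 1 to 4 and 26.3, 24.3, 27.9 and 34.6 CPM in Norrin replicates 1 to 4. Norrin replicates 1, 2 and 3 lay below all vehicle libraries, while Norrin replicate 4 lay within their range. The log2 fold change was −0.21 ± 0.11 (SE; 95% interval −0.43 to 0.01) with an edgeR adjusted p = 0.482, and the upper end of the interval was a 1.01-fold rise.

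Of the 4 target genes, 0 were called by any of edgeR, DESeq2 and limma-voom. An unadjusted edgeR p under 0.05 was found for 0 of the 4, against 11.3% of all tested genes. Id1 stood at 41.4, 54.0, 48.3 and 49.4 CPM in vehicle replicates 1 to 4 and at 54.2, 53.0, 47.9 and 41.5 CPM in Norrin replicates 1 to 4. The 2 ranges lay almost on top of each other. The Norrin to vehicle ratio was 1.02, with a 95% interval from 0.893 to 1.16 (log2 0.03 ± 0.09 SE, edgeR adjusted p = 0.958). Among Norrin libraries, replicate 4 held the lowest Bmp2 and the lowest Id1 and replicate 1 the highest of both. Under vehicle it was the other way, with replicate 1 highest in Bmp2 and lowest in Id1.

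Id3 was at 17.6, 17.8, 10.9 and 12.9 CPM in the vehicle libraries and at 13.6, 15.3, 14.6 and 12.9 CPM in the Norrin libraries, in replicate order. All 4 Norrin values fell inside the vehicle range, which was wide (coefficient of variation 23.3%). The ratio was 0.958 with a 95% interval from 0.773 to 1.19 (edgeR adjusted p = 0.935).

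Smad6, with the Smad palindrome at its start, read 17.1, 14.9, 15.2 and 17.5 CPM under vehicle and 15.4, 16.7, 12.8 and 18.3 CPM with Norrin. The lowest and the highest of the 8 values were both Norrin libraries, replicates 3 and 4. The ratio was 0.977 with a 95% interval from 0.809 to 1.18 (edgeR adjusted p = 0.962). Smad7, the inhibitory Smad that also restrains TGF-beta receptors, was at 9.42, 9.13, 12.3 and 13.0 CPM under vehicle and 8.20, 8.76, 12.7 and 12.9 CPM with Norrin. Its groups overlapped, with Norrin replicates 1 and 2 below every vehicle library. The ratio was 0.968 with a 95% interval from 0.756 to 1.24 (edgeR adjusted p = 0.959). Across the 4 targets the upper ends of the intervals reached 1.16-fold to 1.24-fold. The intervals do not exclude rises of the targets up to those upper ends, which are not limits of detection. The sign of each of the 4 small differences depended on which libraries were in the fit.

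**Figure D2:**
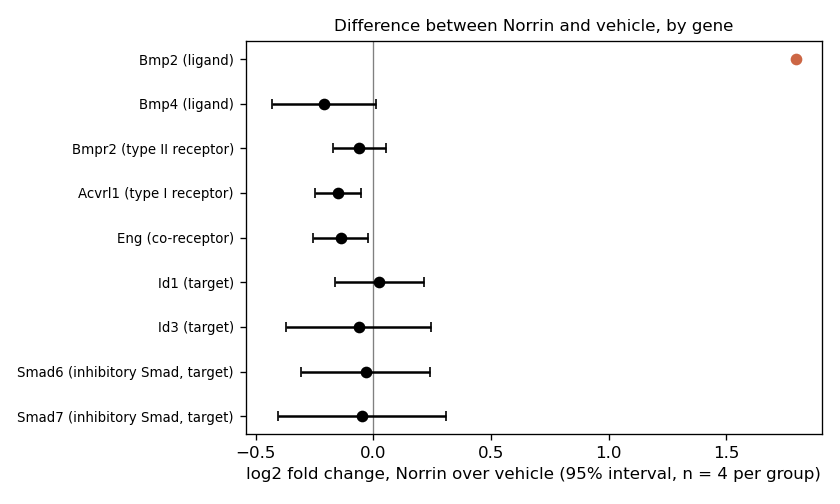
Log2 fold change of Norrin over vehicle (horizontal axis) for the 9 genes in order of role, with 95% intervals from the fit across all genes (n = 4 per group). Bmp2, in orange and without an interval because it was selected on its counts, sits at 1.79, and the other 8 lie between −0.21 and 0.03.

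The 3 receptor genes had means slightly below their vehicle level, and 0 were called. Acvrl1, which encodes ALK1, read 440, 442, 416 and 407 CPM in the vehicle libraries and 372, 417, 395 and 354 CPM in the Norrin libraries. Norrin replicates 1, 3 and 4 lay below all vehicle libraries and replicate 2 within their range. The log2 fold change was −0.15 ± 0.05 (SE; 95% interval −0.25 to −0.05), with an edgeR adjusted p = 0.12. Acvrl1 passed without Norrin replicate 2, at −0.19 (edgeR adjusted p = 0.0475; 0.0449 to 0.353 over 14 alternatives).

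Eng, encoding the co-receptor endoglin, was at 296, 274, 266 and 282 CPM under vehicle and 243, 261, 228 and 283 CPM with Norrin. Norrin replicates 1, 2 and 3 were below every vehicle library and replicate 4 was above 3 of the 4 vehicle libraries. The log2 fold change was −0.14 ± 0.06 (SE; 95% interval −0.25 to −0.02), with an edgeR adjusted p = 0.284. Eng passed without Norrin replicate 4, at −0.20 (edgeR adjusted p = 0.0311; 0.0311 to 0.658 over 14 alternatives). Bmpr2, the type II receptor gene, varied by only 4.22% (coefficient of variation) under vehicle. It was at 138 ± 5.81 CPM under vehicle and 132 ± 5.42 CPM with Norrin (ratio 0.960, 95% interval 0.887 to 1.04, edgeR adjusted p = 0.796).

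General endothelial markers had a median log2 fold change of −0.05, against 0.00 for all tested genes, with 9 of 12 below 0. The 3 above 0 were Ly6a (0.18 ± 0.10), Robo4 (0.10 ± 0.06) and Erg (0.04 ± 0.05), and Cdh5 was at −0.02 ± 0.03. Their summed level was 7423 to 7644 CPM under vehicle and 7062 to 7316 CPM with Norrin, without overlap. Egfl7 was called (log2 −0.16 ± 0.04, edgeR adjusted p = 0.0378), while Pecam1 (−0.10 ± 0.03, 0.132) and Kdr (−0.11 ± 0.03, 0.104) had separate groups but did not pass. Groups were separate for these 3 of the 12 markers, against 7.01% of all tested genes. DESeq2 called Kdr as well as Egfl7. An unadjusted edgeR p under 0.05 was found for 4 of the 12, these and Tek, all lower, against 11.3% of all tested genes. The call of Egfl7 was lost with any 1 of 6 libraries left out, and it passed without vehicle replicate 1 or Norrin replicate 4. The part of these shifts in the values of Acvrl1 and Eng was not tested.

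Counted together, 0 of the 8 members other than Bmp2 were called, whether edgeR, DESeq2 or limma-voom was used. Acvrl1 and Eng, 2 of the 8, had an unadjusted edgeR p under 0.05, against 11.3% of all tested genes. Of 13666 tested genes 2.17% were called, 1.2% as higher and 0.966% as lower with Norrin. The 8 genes had a median log2 fold change of −0.06 against 0.00 for all tested genes, and 7 of the 8 lay below 0. Bmp2 was the only member whose groups did not overlap, against 7.01% of tested genes. Since the set was built around Bmp2, nothing is read from its own place in these counts.

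Wider lists by role were taken from textbook knowledge of BMP and TGF-beta signalling. The lists include the members and share genes, so their counts are not separate. Smad6, Smad7, Bambi and Smurf1 stand among both the intracellular inhibitors and the BMP targets, and Smad7 and Skil also among the TGF-beta targets. Of 32 ligand genes 9 could be tested in the main fit. Beside Bmp2, 0 of the other 8 were called by edgeR or limma-voom. DESeq2, with its own filter, tested 10 ligand genes, Bmp2 among them, and called Tgfb3. Among the 8 others of the main fit only Tgfb3 had an unadjusted edgeR p under 0.05, against 11.3% of all tested genes. Tgfb1, the most counted other ligand, was at 125 ± 4.71 CPM under vehicle and 124 ± 5.53 CPM with Norrin, and Gdf11 at 25.8 ± 2.79 and 28.0 ± 0.944 CPM. Tgfb3, chosen for mention once its values were known, was at 27.8 ± 3.27 and 20.6 ± 3.65 CPM (log2 −0.43 ± 0.12, edgeR adjusted p = 0.0585), and was called in 4 of 14 alternative fits.

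Among 13 tested receptors and co-receptors, 1 fell and 12 did not pass, where 0.966% of all tested genes were called lower. An unadjusted edgeR p under 0.05 was found for 6 of the 13, against 11.3% of all tested genes, namely Neo1, Acvrl1, Eng and Acvr1, which were lower, and Tgfbr2 and Tgfbr3, which were higher. The groups did not overlap for 3 of the 13, Neo1, Acvr1 and Tgfbr3, against 7.01% of all tested genes. Neo1, encoding neogenin, a receptor that binds repulsive guidance molecules and through them BMPs, fell by 0.31 on the log2 scale. It read 680, 660, 662 and 712 CPM under vehicle and 574, 539, 512 and 560 CPM with Norrin (edgeR adjusted p = 1.12e-05). The 4 Norrin libraries all lay below the 4 vehicle libraries, and Neo1 was called in each of the 14 alternative fits. Tgfbr2, the TGF-beta type II receptor gene, was at 404 ± 12.6 and 436 ± 30.3 CPM (log2 0.11 ± 0.05, edgeR adjusted p = 0.322), and was called without Norrin replicate 4. Bmpr1a, a widely used BMP type I receptor gene, was too low to test, at 0.378 ± 0.456 and 0.418 ± 0.374 CPM.

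Of 9 tested extracellular antagonists and modulators, 1 fell and 8 did not pass, where 0.966% of all tested genes were called lower. Tll1, a tolloid-like protease gene of the BMP1 family, whose members cleave the BMP antagonist chordin, fell by 0.54 on the log2 scale. It was at 71.0, 59.3, 61.7 and 68.9 CPM under vehicle and 47.9, 45.8, 41.3 and 43.8 CPM with Norrin (edgeR adjusted p = 5.23e-05). Every Norrin library was below every vehicle library. Groups were separate for 1 of the 9, Tll1, against 7.01% of all tested genes. Crim1, encoding a cell-surface BMP-binding protein, was at 1095 ± 21.5 and 1063 ± 39.2 CPM, and Fstl1 at a log2 fold change of −0.03 ± 0.04 (SE). Noggin and the gremlins were not analysed here.

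The signal transducers did not pass. Of 5 tested receptor-regulated and common Smads, 0 were called by any of these 3 tools. For 1 of the 5, Smad1, the unadjusted edgeR p was under 0.05, against 11.3% of all tested genes. Smad1, which carries the BMP signal, was at 38.9 ± 3.31 CPM under vehicle and 33.1 ± 6.29 CPM with Norrin (log2 −0.23 ± 0.11, edgeR adjusted p = 0.411), and Smad4, the common partner, at 48.0 ± 5.21 and 51.2 ± 2.02 CPM. Of 11 intracellular inhibitors, 0 were called by any of the 3 tools. The unadjusted edgeR p was under 0.05 for 2 of the 11, against the same 11.3% of all tested genes. Smurf1, a ubiquitin ligase gene that acts on BMP Smads and receptors, was at 198 ± 14.5 and 196 ± 7.68 CPM. Fkbp1a, whose product binds type I receptors, was at 402 ± 18.4 and 386 ± 30.9 CPM.

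Of 16 listed BMP target genes 10 could be tested, the members Id1, Id3, Smad6 and Smad7 among them. Of the 10, 0 were called by edgeR or limma-voom and 1, Id2, by DESeq2. An unadjusted edgeR p under 0.05 was found for 3, namely Id2, Bambi and Msx1, against 11.3% of all tested genes. The list's median log2 fold change was −0.04 and 7 of the 10 lay below 0. Id2, the other Id gene with enough reads, read 19.8, 18.5, 18.5 and 17.3 CPM under vehicle and 15.1, 12.8, 14.8 and 13.0 CPM with Norrin. Its groups did not overlap, and the difference was downward (log2 −0.41 ± 0.12 SE, edgeR adjusted p = 0.0908; DESeq2 adjusted p = 0.0417; 0.0417 to 0.259 over 14 alternatives). Id2 and Bambi were named after their values were seen.

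Bambi, encoding a pseudoreceptor that dampens BMP signals, read 7.03, 10.6, 6.63 and 7.15 CPM under vehicle. With Norrin it read 5.76, 4.82, 4.03 and 5.76 CPM, again with no overlap (log2 −0.63 ± 0.21 SE, edgeR adjusted p = 0.133; 0.106 to 0.50 over 14 alternatives). So 2 of the 10 tested targets had separate groups, both lower with Norrin, where 7.01% of all tested genes had separate groups in either direction. Msx1, a homeobox gene, was at 27.5 ± 3.66 and 32.2 ± 2.91 CPM (log2 0.23 ± 0.11, edgeR adjusted p = 0.403). In the neighbouring TGF-beta target list, 1 of 11 tested genes fell and 10 did not pass, where 0.966% of all tested genes were called lower. Groups were separate for 2 of the 11, Fn1 and Tgfbi, both lower with Norrin. Tgfbi, named after its values were seen, was low, at 1.77 ± 0.379 and 1.02 ± 0.356 CPM (log2 −0.78 ± 0.39, edgeR adjusted p = 0.466). The fibronectin gene Fn1 went from 6217 ± 113 to 5260 ± 227 CPM, a log2 fold change of −0.24 ± 0.03 (SE). Ltbp1 was at 153 ± 4.48 and 145 ± 10.8 CPM.

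**Figure D3:**
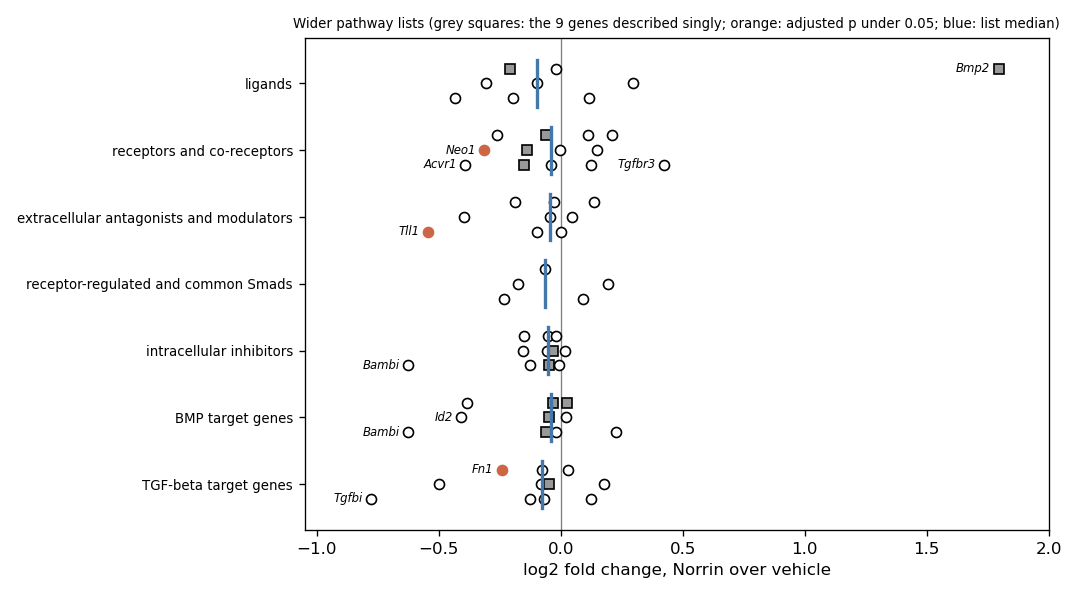
Log2 fold change of Norrin over vehicle (horizontal axis) for every tested gene of 7 lists by role (rows; vertical offsets within a row only separate points). Grey squares are the 9 genes described singly, orange points passed the adjusted p, blue lines are list medians, and names mark genes that passed or whose groups did not overlap. The target list centres on −0.04, with Id2 at −0.41 and Bambi at −0.63.

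The profile of Bmp2 over the 8 libraries was most like that of genes outside the pathway. Likeness was the root mean square distance between log2 CPM profiles, each minus its own vehicle mean, over 8 libraries and 13091 genes of at least 1 CPM on average. Bmx, an endothelial kinase gene, was closest at 0.27, followed by the adhesion receptor gene Adgrg6 at 0.35, the actin-severing protein gene Scin at 0.36, Pdia5 at 0.37 and Plxnb1 at 0.40. Scin was at 44.1 ± 6.63 CPM under vehicle and 120 ± 24.3 CPM with Norrin. The measure takes genes of like fold and like order among libraries, so it describes shape only. It rests on the Bmp2 counts on which the set was selected, and few of the 13091 genes were on the lists. Nothing about the pathway is read from it.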

How the data were processed

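RNA of 8 bEnd.3 cultures, 4 vehicle and 4 Norrin, was depleted of ribosomal RNA and sequenced in paired ends, per the labels' protocols. The authors deposited estimated counts per gene and library, 1 RPKM value per group, and a fold, the ratio of the 2 RPKM values. The submitters' processing notes name STAR, with no version. Genome build, annotation, counter and strand were not given in the sources used here. Overlapping, antisense and near-identical genes are therefore uncertain. The rows start at a vehicle RPKM of 0.1, so a gene silent under vehicle could be missing from the table. Of 123616 counts 763 were not whole, and counts were rounded.

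The main test was edgeR 4.0.16 under R 4.3.3 (filterByExpr, TMM, robust quasi-likelihood fit, two-sided, Benjamini-Hochberg over 13666 genes, threshold 0.05). The filter left out 1786 genes, and 1 row with no gene name was left out. Replicates varied by 11.2% (edgeR's common biological coefficient of variation). The floor of 3 counts was 0.193 to 0.241 CPM, for counting error alone. On simulated data for Norrin against vehicle with 13666 genes, the step found 96% of 50 genes simulated with a 4-fold change. For 2-fold, 1.5-fold and 1.2-fold changes it found 74%, 48% and 16%. False calls were 4 of 121. Simulated counts followed edgeR's trend of spread with level and lacked each gene's own departure from it. Genes of all levels were drawn, so these shares are not detection rates for single members. DESeq2 1.42.0 and limma-voom (limma 3.58.1) were alternatives, with other factors, other filters, the replicate block and each library left out. Figures used matplotlib 3.10.9.

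The members and lists were chosen with earlier results of these data known. Named are the members, genes of the wider pathway lists past the threshold, the 2 most counted other genes of each of those lists, Axin2 and the 5 genes most like Bmp2, with some cell type markers and others marked as such. Listed symbols were matched by name, then by RefSeq synonyms. Chi-square per degree of freedom between libraries of a group ran from 5.5 to 14.6, so no pair agreed within sampling noise.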

Additional observations from a re-analysis of the deposited data

How the results depend on the processing

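The log2 fold change of Bmp2, a description since the set was selected on it, was 1.66 to 2.03 over 14 alternative fits. Leaving out each library moved Id1 between −0.039 and 0.098, Id3 between −0.188 and 0.041, Smad6 between −0.111 and 0.056, and Smad7 between −0.153 and 0.063, all across 0 and never past the threshold. The 6 other alternatives left these 4 signs as they were. Leaving out each library moved Acvrl1 between −0.188 and −0.112 and Eng between −0.196 and −0.090. Acvrl1 passed with the replicate block (−0.15, edgeR adjusted p = 0.0449, 0.0449 to 0.353 over all alternatives), and Eng without Norrin replicate 4 (0.0311 to 0.658). The cause was not tested.

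Over all genes, leaving out each library gave 206 to 452 calls, the highest without Norrin replicate 4. Calls among receptors ran from 1 to 3 with a library left out. The ligand count includes Bmp2, whose place in it is no test, and ran from 1 to 2 with a library left out. It was 2 with the replicate block and with DESeq2, and the added gene was Tgfb3 in each case. Both fits also called 2 receptor genes, Neo1 with Acvrl1 for the block and Neo1 with Acvr1 for DESeq2. DESeq2 called 1 BMP target, Id2. The block gave 402 calls over all genes and DESeq2 406, against 296 in the main fit. Deviations of same-numbered libraries of the 2 groups correlated weakly over genes (−0.02 to 0.07), and those of differently numbered libraries at −0.06 to 0.07. A correlation over all genes cannot decide whether same-numbered libraries share a batch, which was not tested. With 4 libraries per group and 16 to 28 vehicle reads of Bmp2, its log2 fold change had an SE of 0.28, the largest of the 9 members.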

Other observations

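In both groups Smad7 was lower in replicates 1 and 2 than in replicates 3 and 4, at 9.42 and 9.13 against 12.3 and 13.0 CPM under vehicle and 8.20 and 8.76 against 12.7 and 12.9 CPM with Norrin. The SD within a group was 1.98 CPM under vehicle and 2.50 CPM with Norrin. Over all genes, same-numbered libraries correlated only weakly, and whether they share a batch was not tested.

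Acvr1, encoding the BMP type I receptor ALK2, was at 19.0 ± 0.776 CPM under vehicle and 14.5 ± 0.643 CPM with Norrin, with no overlap of the groups (log2 −0.39 ± 0.12 SE, edgeR adjusted p = 0.0944; 0.0403 to 0.235 over 14 alternatives, lowest by DESeq2). Tgfbr3, encoding the co-receptor betaglycan, was at 10.7 ± 0.795 and 14.3 ± 1.48 CPM, also without overlap (log2 0.42 ± 0.14 SE, edgeR adjusted p = 0.138; 0.0664 to 0.333 over 14 alternatives). Both were named after their values were seen.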
